A study of Homo sapiens with 6 samples.

Results

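RBM39 and its paralog RBM23 were examined in mRNA-seq of SW480, a human colon adenocarcinoma line. The pair was chosen by gene name, and both genes were among the 56303 symbols of the count table. Of the 6 libraries, 3 were from cells with a control short hairpin (shCtrl) and 3 from cells with a short hairpin to RBM39 (shRBM39), and no other treatment was labelled. The hairpins were delivered by lentivirus and the lines were selected with puromycin, so the comparison is between stable lines that the study's methods call clonal. How many lines stand behind each group is not given in the sources used here, and if it is 1 each, the hairpin and a difference between lines cannot be told apart. The methods speak of replicate experiments but not of separate lines, and p-values then measure only the spread between these libraries.

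RBM39 (also known as CAPERalpha) is an SR-like nuclear protein with an RS region, RNA recognition motifs (RRMs) and a U2AF homology motif (UHM), a fold that grips short peptides of other splicing factors. It works with U2AF and the SF3B complex where introns are marked at their 3′ end, and has also been described as a coactivator of the transcription factor AP-1 and of oestrogen receptors. RBM23 (CAPERbeta) shares the RS and RRM regions. Aryl sulfonamides such as indisulam direct both proteins to the DCAF15 ubiquitin ligase for degradation.

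The likeness of the paralogs bears on whether a read could be shared between them. The hairpin sequence is not given in the sources used here, so its match to RBM39, RBM23 or their copies was not checked. RBM39 lies on GRCh38 chromosome 20, 35703609 to 35742312, and RBM23 on chromosome 14, 22893206 to 22919184, both on the minus strand. The canonical coding sequences in GENCODE v44 have 530 codons in 17 exons of the transcript for RBM39 and 439 codons in 14 exons for RBM23. Of 398 codons that could be aligned, 275 (69.1%) encoded the same amino acid, whereas 62.9% of the bases in these codons were identical. In windows of RBM39 the share of codons with the same amino acid was 55% for codons 1 to 100, 66% for codons 101 to 200, 86% for codons 201 to 300 and 53% for codons 301 to 400. The last aligned codon of RBM39 was 437, and the 93 codons after it, at the end of the protein that carries the UHM, had no counterpart in canonical RBM23.

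**Figure D1:**
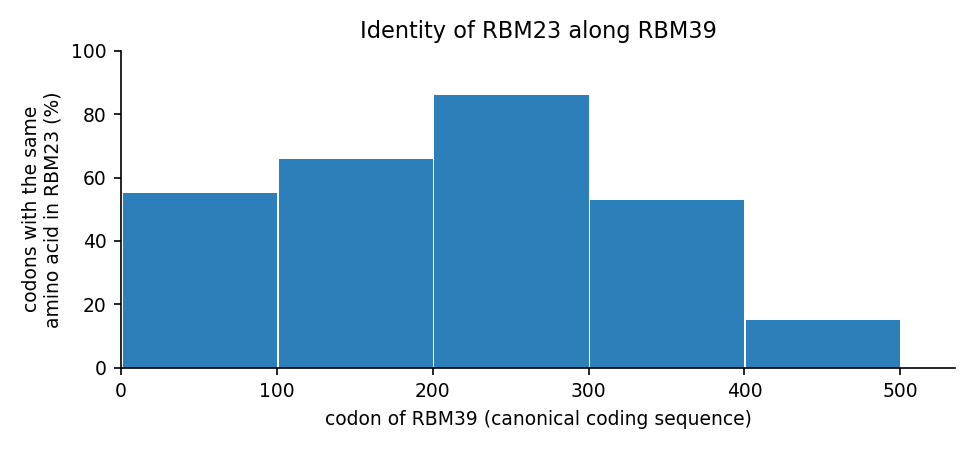
Share of RBM39 codons (%, y axis) whose amino acid was the same in RBM23, in consecutive windows of the canonical coding sequence of RBM39 (x axis, codon number). The highest bar, 86%, covers codons 201 to 300, and the bar for codons 401 to 500 is at 15%, with 30 of its codons aligned.

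The following 75 bases of exon 7 are shown because they hold the longest run of identical coding bases, 12, and lead into the first RRM. They lie at chr20:35725062-35725136 in RBM39 and chr14:22905360-22905434 in RBM23, both minus strand, GRCh38. Capitals mark the bases that differ between RBM39 and RBM23. The last line is the same stretch of RBM39P1, a processed pseudogene copy of RBM39 on the plus strand at chrX:44029766-44029840, with capitals at the bases that differ from RBM39.
RBM39: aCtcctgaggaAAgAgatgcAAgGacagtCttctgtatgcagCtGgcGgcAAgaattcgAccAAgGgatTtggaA
RBM23: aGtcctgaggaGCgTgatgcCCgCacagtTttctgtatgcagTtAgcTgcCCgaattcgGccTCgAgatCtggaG
RBM39P1: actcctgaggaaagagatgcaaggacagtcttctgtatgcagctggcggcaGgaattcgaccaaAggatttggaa
RBM39 and RBM23 differed at 19 of these 75 bases, yet 24 of the 25 codons encoded the same amino acid. RBM39P1 differed from RBM39 at 2 bases.

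Between the canonical transcripts of the paralogs, the longest identical stretch was 27 bases. Over all their annotated exons there were 5 shared runs of 25 bases, 0 of 30 bases and 0 of 50 bases. RBM39P1 was closer to RBM39, with 95.4% identical bases over 1585 aligned, and 6.29% of all 50-base runs of the RBM39 coding sequence occurred in it exactly. It is listed in the count table under an older symbol, RP6-218J18.2, with the same coordinates (chromosome X, 44029332 to 44030921). It had 5, 5 and 4 counts in shCtrl and 1, 2 and 0 in shRBM39, which is at most 0.0562% of the counts of RBM39 in the same library. How the authors treated reads with several matches is not given in the sources used here. A further match of 35.9% of the coding sequence on chromosome 5, at 69.7% identity, overlapped no gene with counts. Canonical transcripts make up 53.8% of the merged exon length of RBM39 and 71.4% of that of RBM23, and the counts cover all annotated transcripts of a gene. GENCODE v44 lists 47 transcripts for RBM39, of which 16 are annotated as targets of nonsense-mediated decay, and 33 for RBM23, of which 0 are. The annotation release used for counting is not given in the sources used here, so its transcripts may differ.

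Total counts ran from 18042924 to 20428901 per library, and 18243 genes were tested. The identity of the cells was checked with marker genes. Of 9 colon epithelium markers, 8 had counts in every library, with a summed level of 11720 to 12550 CPM in shCtrl and 14770 to 15350 CPM in shRBM39. CDX1 had at most 2 counts and LGALS4 at most 8, so these markers of differentiated colon epithelium were at or near 0. The summed levels of 5 fibroblast markers (10.0 to 11.1 CPM in shCtrl, 14.0 to 14.6 in shRBM39), 5 leukocyte markers (1.13 to 2.08 and 2.32 to 3.11) and 3 endothelium markers (3.47 to 4.58 and 6.45 to 7.96) were far lower. The defining markers DCN, PTPRC and CDH5 had at most 1, 0 and 1 counts. Other genes of these lists had counts in every library, namely COL1A1 (110 to 208), LUM (70 to 111), CD14 (2 to 13), LYZ (19 to 55), PECAM1 (57 to 122) and VWF (10 to 34). On the log2 fold change scale COL1A1 (0.81), LYZ (1.03), PECAM1 (0.79) and VWF (1.39) were called higher, and LUM (-0.08) was not called. CD14 had too few counts to be tested, at a mean of 0.44 CPM by library totals in shCtrl and 0.17 in shRBM39, with overlapping groups. All 4 summed levels were higher in shRBM39, and their part in the results was not tested. Among the epithelial genes, the keratin genes KRT8 (6924 to 9309 CPM) and KRT18 (2940 to 3476 CPM) were called higher, EPCAM and KRT19 were not called, and CDH1 (log2 fold change -0.39) and VIL1 (-0.09) were called lower. The intestinal transcription factor gene CDX2 was lower in shRBM39, at 4.95 ± 0.529 against 21.7 ± 0.616 CPM (SD, n = 3 each).

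To check the knockdown, the level of RBM39 was compared first. RBM39 mRNA fell by 37% in shRBM39. In bulk RNA, fewer cells that express a gene and less RNA per cell cannot be told apart, here and in the results that follow. RBM39 had 8894, 9504 and 8831 counts in shCtrl replicates 1, 2 and 3, and 5211, 4743 and 5662 in shRBM39 replicates 1, 2 and 3. As deposited RPKM (counts divided by merged exon length and by library total) these were 48.4, 49.9 and 48.3 in shCtrl and 27.1, 27.9 and 29.7 in shRBM39. The groups did not overlap, as in 63.3% of all genes tested, counting either direction. The lowest control library was above the highest knockdown library by far more than the spread within either group. On the CPM scale (counts divided by TMM library sizes, which correct totals for composition), the mean was 441 ± 6.53 in shCtrl and 278 ± 13.3 in shRBM39 (SD, n = 3 each). The log2 fold change was -0.67 (95% interval -0.74 to -0.59), with an adjusted p of 1.24e-16 in edgeR's quasi-likelihood test over all 18243 genes. In this comparison 29.9% of all genes tested were called lower, 29.2% were called higher and 59.1% were called in either direction. Thus a call alone did not set RBM39 apart, and its rank describes it better: 1749 genes (9.59%) had a larger fall. Scaling moved the size of the fall, from -0.54 with a correction for GC content and length to -0.79 with library totals alone. The protein was not measured in these libraries.

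RBM23, the paralog, moved the other way and was 63.0% higher in shRBM39. Its counts were 1470, 1527 and 1442 in shCtrl and 2364, 2057 and 2165 in shRBM39. The RPKM values were 5.37, 5.38 and 5.29 in shCtrl and 8.25, 8.13 and 7.63 in shRBM39. Every shRBM39 library lay above every shCtrl library, a separation in either direction that 63.3% of all genes tested showed. The mean rose from 72.0 ± 0.987 to 117 ± 4.83 CPM (SD, n = 3 each). The log2 fold change was 0.71 (95% interval 0.62 to 0.79), with an adjusted p of 3.2e-16 in edgeR's quasi-likelihood test. A larger rise was found in 1088 genes (5.96%). Across all alternatives the log2 fold change of RBM23 lay between 0.50, on log2(RPKM + 1), and 0.84, with the correction for GC content and length.

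**Figure D2:**
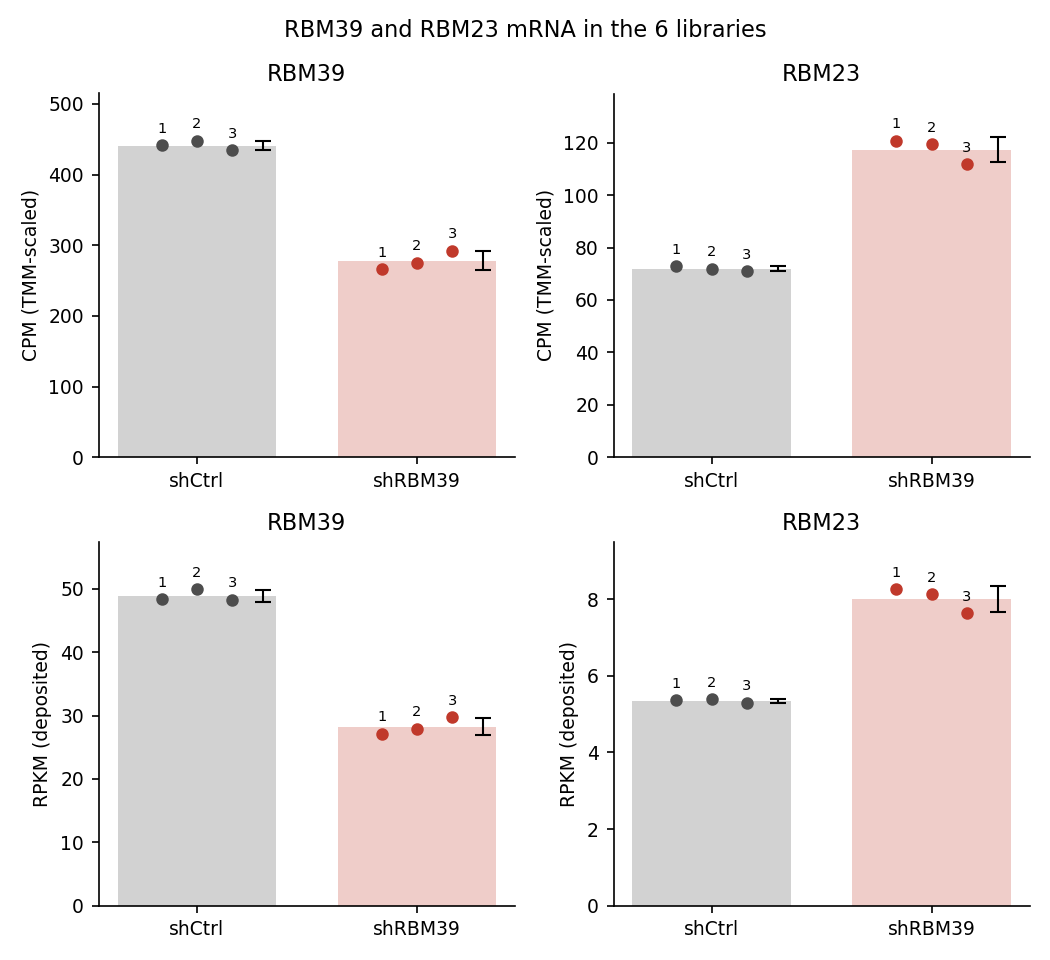
Level of RBM39 (left) and RBM23 (right) in each library, as TMM-scaled CPM (top) and as deposited RPKM (bottom). Bars are means of 3 libraries, error bars 1 SD, numbered points the replicates. RBM39 falls from 441 to 278 CPM and RBM23 rises from 72.0 to 117 CPM, with no overlap between shCtrl and shRBM39.

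The RNA levels of the paralogs were far apart, also in the control libraries alone. By mean CPM over all 6 libraries, those of shRBM39 included, RBM39 was exceeded by 415 genes (2.27%) and RBM23 by 1945 genes (10.7%). Per length, by the RPKM of the control libraries, RBM39 was exceeded by 977 genes (5.36%) and RBM23 by 7107 genes (39.0%). The longer merged exons of RBM23, 14022 bases against 9413 for RBM39, lower its level per length.

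Next, the balance between the paralogs was computed within each library, where the scaling of the library cancels out. There were 9.01, 9.27 and 9.12 RBM39 RPKM per RBM23 RPKM in the shCtrl libraries and 3.28, 3.44 and 3.90 in the shRBM39 libraries. All control ratios were above all knockdown ratios. The mean ratio was 9.14 ± 0.130 in shCtrl and 3.54 ± 0.319 in shRBM39 (SD, n = 3 each). On the log2 scale the RBM23 to RBM39 ratio was higher by 1.37, with a two-sided exact permutation p of 0.1, the smallest that 3 libraries against 3 allow. RBM39 therefore remained the more abundant of the pair per length in every shRBM39 library. Divided by the length of the canonical transcript, the mean ratio was 12.1 in shCtrl and 4.70 in shRBM39, and without division by length it was 6.13 and 2.38.

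The rise of RBM23 was smaller than the fall of RBM39 when both were put in the same unit. RBM39 was lower by 20.6 RPKM and RBM23 was higher by 2.66 RPKM, which is 12.9% of the loss. This percentage was 9.71 per kilobase of canonical transcript, 18.7 in RPKM with TMM library sizes and 19.2 in CPM by library totals, so it depended on the length and scaling used. It was not computed in TMM-scaled CPM, where RBM39 fell from 441 to 278 and RBM23 rose from 72.0 to 117. There the rise is a larger part of the fall, so the percentages given are not its full range. The summed RPKM of the pair was 53.7, 55.3 and 53.6 in shCtrl and 35.4, 36.1 and 37.4 in shRBM39. The mean sum was 54.2 ± 0.956 in shCtrl and 36.3 ± 1.02 in shRBM39 (SD, n = 3 each; two-sided exact permutation p = 0.1, the smallest possible). RBM23 made up 9.87% ± 0.126 of the sum in shCtrl and 22.1% ± 1.51 in shRBM39 (SD, n = 3 each). These are levels of RNA, not of protein.

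**Figure D3:**
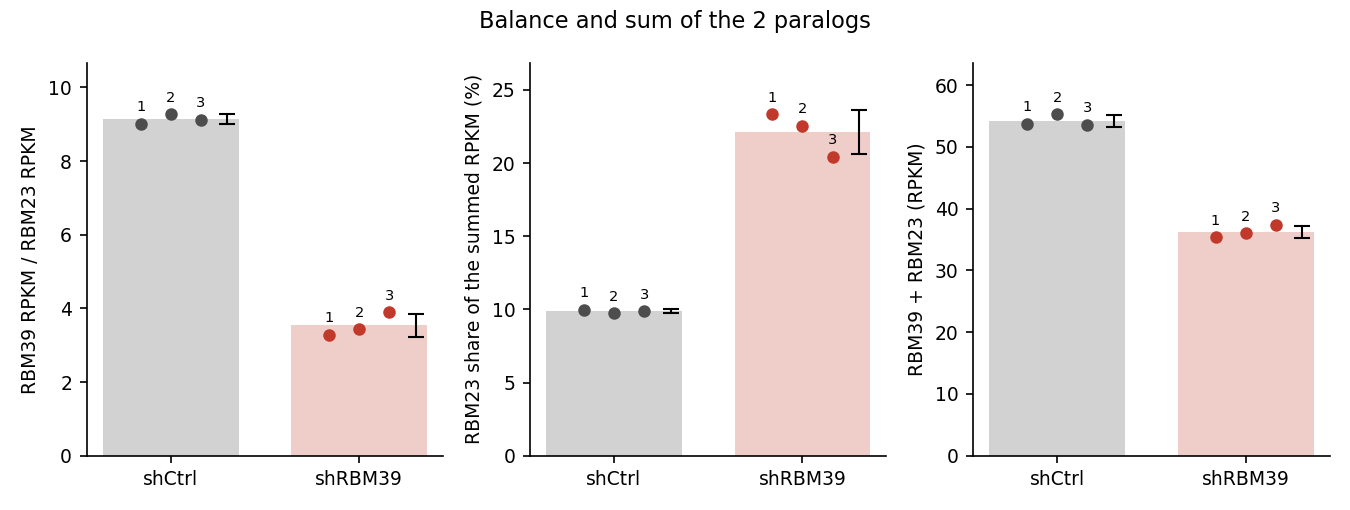
RBM39 RPKM per RBM23 RPKM (left), RBM23 as a percentage of the summed RPKM (middle) and the summed RPKM (right) in each library. Bars are means of 3 libraries, error bars 1 SD, numbered points the replicates. The ratio falls from 9.14 to 3.54, the RBM23 share rises from 9.87% to 22.1%, and the sum falls from 54.2 to 36.3 RPKM.

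Within the shRBM39 group, replicate 3 had the highest RBM39 (29.7 RPKM) and the lowest RBM23 (7.63 RPKM), and replicate 1 the lowest RBM39 (27.1 RPKM) and the highest RBM23 (8.25 RPKM). In shCtrl, replicate 2 had the highest RPKM of both genes, at 49.9 for RBM39 and 5.38 for RBM23. For RBM23 this depended on scaling, as TMM-scaled CPM was highest in shCtrl replicate 1 (72.9, against 71.9 in replicate 2). With 3 libraries in each cluster no correlation between the paralogs was computed.

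The neighbouring genes were examined to see whether the changes extended along the chromosome. Next to RBM39, ROMO1, which encodes a mitochondrial inner membrane protein, was higher (log2 fold change 0.50, edgeR adjusted p 2.7e-11) and SCAND1 was higher (0.26, edgeR adjusted p 0.000405), whereas PHF20, a reader of methylated histones, was lower (-0.41, edgeR adjusted p 5.83e-08). NFS1, the cysteine desulfurase of iron-sulfur cluster assembly, had a log2 fold change of 0.07 (95% interval -0.05 to 0.20) and was not called. Next to RBM23, the matrix metalloprotease gene MMP14 was lower (-0.81, edgeR adjusted p 9.64e-07), as was the receptor gene LRP10 (-0.74, edgeR adjusted p 3.07e-14). On the other side, PRMT5, an arginine methyltransferase, was slightly higher (0.15, edgeR adjusted p 0.00338). No exons of another gene with counts overlapped those of RBM39. The neighbours of either gene therefore moved in both directions.

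PRMT5-AS1, on the plus strand, starts within RBM23 and shares 186 bases with its exons, 1.33% of the exon length of RBM23. PRMT5-AS1 had 1390, 1420 and 1370 counts in shCtrl and 1775, 1542 and 1735 in shRBM39. It was higher by a log2 fold change of 0.41 (SE 0.04, edgeR adjusted p 2.09e-10). The library kit keeps strand, but whether counting used it is not given in the sources used here, so reads in the shared 186 bases cannot be told apart.

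**Figure D4:**
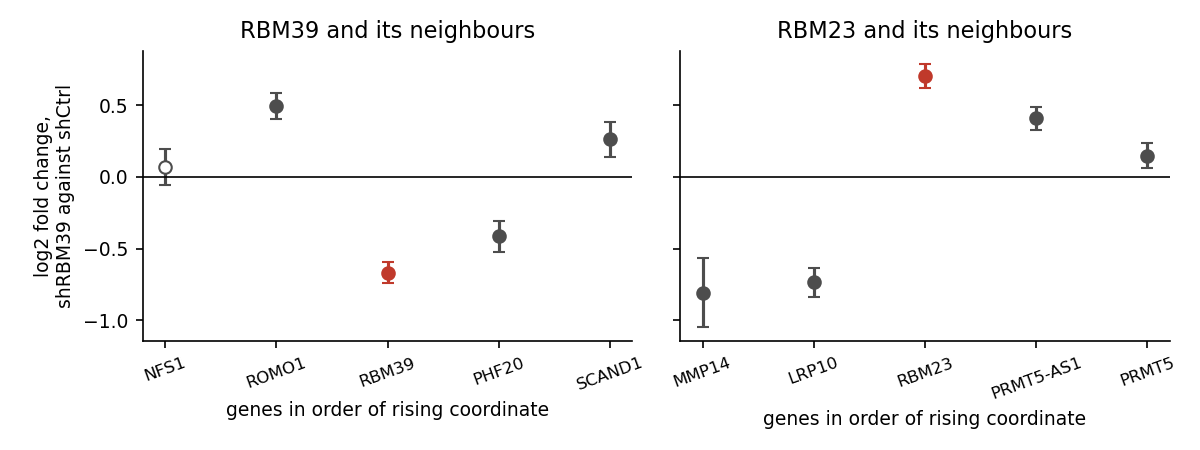
Log2 fold change of shRBM39 against shCtrl (y axis) for RBM39 (left, red) and RBM23 (right, red) and the nearest tested genes on either side (grey), in order of chromosome position. Bars are 95% intervals of the edgeR fit, and the open point (NFS1, 0.07) is the gene that was not called. RBM39 at -0.67 has ROMO1 at 0.50 beside it, and RBM23 at 0.71 has LRP10 at -0.74 beside it.

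The genes whose pattern over the 6 libraries was most like that of each paralog were then listed, by the Euclidean distance of log2(CPM + 0.5) values centred on each gene's mean, among the 12057 genes whose mean was 5 CPM or more. For RBM39 these were TBC1D23 (distance 0.0594), the collagen lysyl hydroxylase gene PLOD2 (0.0764), SNHG7 (0.0805), CCNB1IP1 (0.0826) and DNAAF2 (0.0834), against a median distance of 0.872. For RBM23 they were RRBP1 (distance 0.0235), PRC1-AS1 (0.0479), the tubulin gene TUBA1C (0.0511), MKI67, which encodes the proliferation marker Ki-67 (0.0520), and THRAP3 (0.0649), against a median of 0.858. The first RBM23 gene, RRBP1, which encodes a ribosome-binding protein of the endoplasmic reticulum, went from 825 to 1338 CPM (log2 fold change 0.70). The first RBM39 gene, TBC1D23, went from 70.2 to 44.6 CPM (log2 fold change -0.65). With 2 groups of libraries, nearness mostly reflects a change of the same size. Ranked by Pearson correlation, 0 of the 5 genes nearest to RBM39 and 1 of the 5 nearest to RBM23 were the same.

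Genes linked to RBM39 or RBM23 by a shared motif, splicing, transcription or drug-directed degradation were described in 4 lists, called partner lists here. A place in a list does not mean that the proteins act together. All values are from the same fit, where the median log2 fold change of all genes tested was -0.01. First, of 9 other genes that encode a UHM, 7 were higher, 1 was lower and 1 was not called, with a median of 0.29, beside 29.2% of all genes tested called higher and 29.9% called lower. U2AF2, the large U2AF subunit that binds the polypyrimidine tract, rose from 385 ± 7.77 to 558 ± 8.03 CPM (SD, n = 3 each; log2 fold change 0.54). U2AF1, the small subunit that reads the 3′ splice site, rose by 0.46 and PUF60, a U2AF-related factor, by 0.56. ZRSR2, the small-subunit relative of the minor spliceosome, fell from 95.4 ± 0.526 to 67.7 ± 1.51 CPM (SD, n = 3 each), a log2 fold change of -0.49. U2AF1L4 was at -0.14 (95% interval -0.34 to 0.05). RBM17 (0.17) and LEMD3 (0.25) lost their call with library totals alone and on log2 RPKM, UHMK1 (0.29) lost it on log2 RPKM, and U2AF1L4 was called lower under these 3 alternatives.

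Second, SF1, the branch point binding protein, and 13 genes of the U2 snRNP and its helicase were listed. Of these 14 genes, 13 were higher and 1 was lower, with a median log2 fold change of 0.41, beside the same 29.2% of all genes called higher and 29.9% called lower. SF3B1, the subunit that holds the branch point helix, rose from 333 ± 6.49 to 423 ± 22.4 CPM, and PHF5A, its small partner in the same pocket, from 43.4 ± 1.89 to 67.8 ± 1.44 CPM (SD, n = 3 each). PHF5A had the largest log2 fold change of the list, 0.64, followed by SNRPB2 at 0.64 and SNRPA1 at 0.63, which encode proteins of the U2 stem-loop. SF1 was at 0.37 and the helicase gene DDX46 at 0.29. SF3A2 was lower, at -0.13 (edgeR adjusted p 0.00239). These calls were the same in all alternatives.

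Then, for the ligase that degrades both proteins under sulfonamides, 4 of 6 genes were higher, 0 were lower and 2 were not called, with a median of 0.34. Of all genes tested, 29.2% were called higher and 59.1% in either direction, so the share of this list called in either direction was near that of all genes. DCAF15, the receptor subunit, went from 14.7 ± 0.830 to 19.3 ± 1.24 CPM (SD, n = 3 each; log2 fold change 0.39, edgeR adjusted p 2.6e-05). The adaptor DDB1 rose by 0.36, its small cofactor DDA1 by 0.31 and the RING subunit RBX1 by 0.84. The cullin scaffold genes CUL4A and CUL4B were at 0.012 (95% interval -0.06 to 0.08) and 0.0050 (95% interval -0.09 to 0.10), and CUL4A was called lower with library totals alone and on log2 RPKM, CUL4B with library totals alone. No sulfonamide was given to these cells.

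Last, of the transcription factors and coregulators linked to RBM39 or RBM23, 3 of 4 genes had enough counts to be tested. JUN, a subunit of AP-1, was lower at -0.15 (128 ± 3.81 against 115 ± 2.83 CPM, SD, n = 3 each). NCOA6, a nuclear receptor coactivator, was at 0.05 and not called. ESR2, an oestrogen receptor, had 5 to 21 counts, and its groups overlapped. Its log2 fold change of 0.91 (edgeR adjusted p 0.0434) was lost in 10 of 15 alternatives: in 1 the filter removed the gene, and in 9 it was tested and not called, among them DESeq2 (adjusted p 0.12) and the fits without shCtrl replicate 1 (0.63, edgeR adjusted p 0.215), without shCtrl replicate 3 (0.68, edgeR adjusted p 0.16), without shRBM39 replicate 1 (0.90, edgeR adjusted p 0.0839) and without shRBM39 replicate 2 (0.61, edgeR adjusted p 0.264). ESR1 had at most 2 counts.

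**Figure D5:**
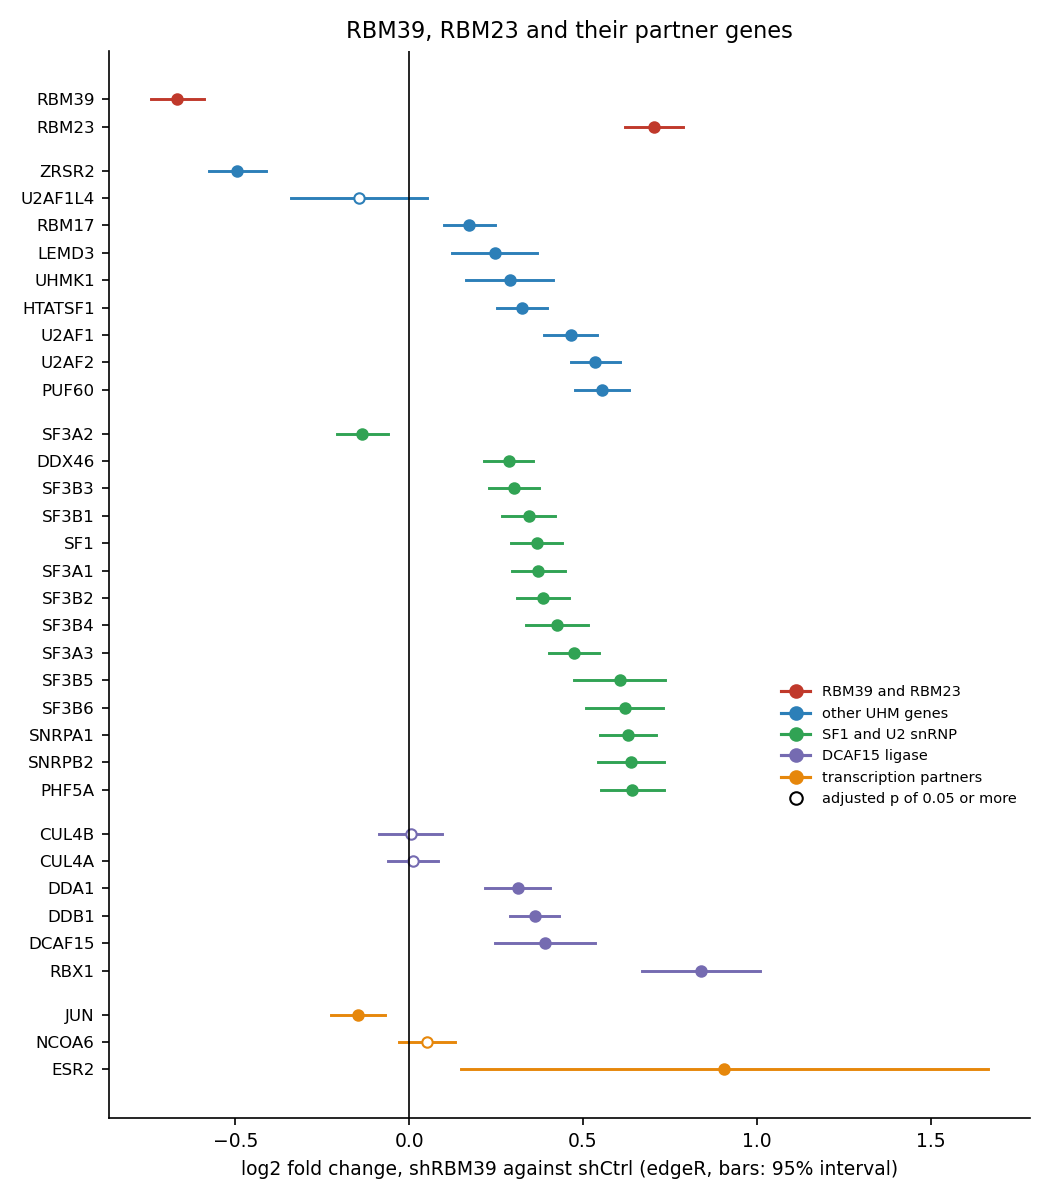
Log2 fold change of shRBM39 against shCtrl (x axis) for RBM39, RBM23 and the tested genes of the 4 partner lists (y axis), with 95% intervals of the edgeR fit. Filled points were called and open points were not. RBM39 at -0.67 has the lowest value shown, and 13 of the 14 SF1 and U2 snRNP genes lie to the right of 0.

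Finally, RBM39 and RBM23 were looked up among the alternative splicing events that the authors deposited. The table had 1582 records from 1198 gene symbols and lists events past the authors' threshold, out of 31743 events that they tested. It held 0 records of RBM39 and 0 of RBM23, looked up by gene symbol. Hence no inclusion level of either gene can be given, and events under the threshold were not analysed here. Among the partner lists, SF1 had 4 records and SNRPA1 had 2. Whether the lists differ in this from all genes, where 1198 symbols had a record, was not tested.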

How the data were processed

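Libraries were made by the study with a stranded mRNA kit and unique identifiers. Trimmomatic 0.36, STAR 2.5.3a, featureCounts with Subread 1.5.1, edgeR 3.12.1 and GRCh38 are named in the submitters' processing notes, without order. Deposited by the authors were raw counts for each gene symbol, over merged exons, RPKM values and a table of rMATS splicing events with junction counts, p-values and inclusion differences, of which only gene names were used. Columns named NC were read as shCtrl. Annotation release, multi-mapping, strand setting and the handling of identifiers in counting are not given in the sources used here.

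Counts were tested with edgeR 4.0.16 in R 4.3.3 (filterByExpr, TMM, glmQLFit, group only, Benjamini-Hochberg over 18243 genes, threshold 0.05). The scripts were tested on simulated data. Alternatives were DESeq2 1.42.0, limma 3.58.1 on log2(RPKM + 1) and log2(RPKM + 0.1), other scalings and filters, a replicate block, each library left out and, added after seeing the data, a correction for GC content and length and division by canonical transcript length. Coding sequences from GRCh38 and GENCODE v44 were aligned and searched with blastn 2.17.0+.

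The members and lists were chosen with earlier results of these data known. Named genes were the pair, the partner lists, the 2 nearest tested genes on each side, genes with overlapping exons, and the 5 nearest in pattern. Replicates of a group differed by more than sampling noise, at a chi-square of 2.11 to 4.21 for each degree of freedom.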

Additional observations from a re-analysis of the deposited data

How the results depend on the processing

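RBM39 kept its direction and call under all alternatives, as did RBM23. Without each library in turn, RBM39 ranged from -0.70 to -0.63, RBM23 from 0.69 to 0.74, the log2 change of their ratio from 1.32 to 1.44, that of their sum from -0.60 to -0.56, and the number of genes called from 10138 to 10263. Unit and scaling moved the sum further. Its log2 change was -0.58 in RPKM, -0.46 with TMM library sizes, -0.50 without division by length and -0.63 per kilobase of canonical transcript. With a replicate block, RBM39 was at -0.67, RBM23 at 0.70, the ratio at 1.37 (exact paired p = 0.25, the smallest 3 pairs allow) and 10810 genes were called; the block changed no call of either gene. Between a shCtrl and a shRBM39 library, correlations of deviations from the group mean lay between -0.035 and 0.031, whether or not the replicate numbers matched. They cannot decide whether libraries of the same number were prepared together, as noise in genes with few counts can lower them.

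Other-UHM genes called higher numbered 4 on log2(RPKM + 1) and on log2(RPKM + 0.1), and those called lower 2 there and with library totals alone. Ligase genes called lower numbered 2 with library totals alone and 1 on either log2 RPKM scale. The transcription partner called higher, ESR2, was lost (0 called) with upper-quartile scaling, library totals alone, DESeq2, the minimum of 10 counts and both log2 RPKM scales, and ranged from 0 to 1 without each library; with the GC correction 2 were called, the other being NCOA6. Genes called higher numbered 3530 on log2(RPKM + 1) and 3535 on log2(RPKM + 0.1). Of called genes 49.4% were higher, against 33.9% with library totals alone and 33.6% on log2 RPKM, where totals set the scale; totals alone shifted the median of all genes by -0.12. Of the 5 genes nearest in pattern, Pearson correlation shared 0 for RBM39 and 1 for RBM23. The alternatives for inclusion levels could not be run, as neither gene had a record.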
